A study of Mus musculus with 16 samples.

Results

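The mRNA level of 10 genes of the Nrf2 antioxidant system was examined in the corpus callosum, the large white matter tract between the brain hemispheres, of mice fed cuprizone (CPZ). The genes were Nfe2l2, which encodes Nrf2 itself, Hmox1, Nqo1, Gclc, Gclm, Gsr, Txnrd1, Srxn1, Prdx1 and Gpx1. They were taken by name, and every probe of the array with a transcript accession of one of them was taken. This gave 15 probes of the 41174 on the array, for 10 of the 18745 genes that could be named.

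CPZ is a copper chelator that kills oligodendrocytes and strips myelin when mixed into the chow. Male C57BL/6 mice were 7 to 8 weeks old per the methods, and the corpus callosum was dissected from frozen sections. Single-colour arrays were hybridised for 3 untreated mice on normal chow, 3 mice after 2 weeks of CPZ, 4 mice after 4 weeks of CPZ and 6 mice returned to a regular diet after 4 weeks of CPZ. The methods give 0.2% CPZ and the labels 0.2 to 0.4%, and the untreated mice were matched in age and sex to the 4-week group only. The methods describe 2 days and 2 weeks of regular diet, but GEO gives no such time for any of the 6 mice, so these mice are 1 mixed group here. CPZ acts on the whole animal, and the dissected tissue holds all cell types of the tract together with blood vessels and neighbouring tissue.

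Nrf2 is a transcription factor that Keap1 binds and passes to a Cul3 and Rbx1 ubiquitin ligase for degradation. Oxidants and electrophiles modify Keap1, Nrf2 then escapes degradation, pairs with a small Maf protein and binds antioxidant response elements near its target genes, while Bach1 competes for the same elements. The targets break down haem, reduce quinones, make and recycle glutathione, and run the thioredoxin and peroxiredoxin system; in the brain the response is best known from astrocytes and microglia.

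The antioxidant response element is the sequence motif that Nrf2 and small Maf proteins share, and it is shown here where it was found in the promoters of the genes described. Promoter sequences of RefSeq on GRCm38.p6, from 250 bases before to 50 bases after the start site, were matched by symbol for 7 of the 10 genes (9 windows, since Txnrd1 has several start sites). The core TGACNNNGC, or its reverse complement GCNNNGTCA, occurred in 5 of these 9 windows and in 12.4% of all 32851 promoter windows of the table. Each line gives the match in capitals with 10 bases on either side, 5′ to 3′ on the strand of the gene.
Nfe2l2: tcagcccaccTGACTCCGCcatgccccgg
Gclm: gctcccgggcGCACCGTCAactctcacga
Txnrd1: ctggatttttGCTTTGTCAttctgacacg
Srxn1: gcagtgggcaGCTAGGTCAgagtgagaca
Prdx1: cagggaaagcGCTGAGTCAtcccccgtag
The Nfe2l2 stretch lies at chr2:75704885-75704913 on the minus strand, the Gclm stretch at chr3:122245413-122245441, the Txnrd1 stretch at chr10:82859104-82859132, the Srxn1 stretch at chr2:152105542-152105570 and the Prdx1 stretch at chr4:116685456-116685484, the last 4 on the plus strand. In Nfe2l2 the core was read along the gene's own strand and in the other 4 on the opposite strand. The Srxn1 match was the only one of the 5 after the start site. The Prdx1 match also holds the AP-1 motif TGACTCA, in its reverse form TGAGTCA, and the other 4 matches do not. No match was found in the windows of Nqo1 and Gpx1, and Hmox1, Gclc and Gsr were not matched. Such a match is a description of the letters and not evidence of binding.

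Levels are log2 values relative to the 75th percentile of each array, so that a difference of 1 is a 2-fold change, and each gene is represented by its brightest probe. All 15 probes were well above background on all 16 arrays and no probe was saturated on any array. Between 57.3% and 72.2% of all probes were well above background on an array, and the 75th percentile lay between 159.2 and 357.5 intensity units. Scanner files and processed table disagreed on which array belongs to which sample: for 14 of 16 samples the column of the processed table was identical (r = 1.0 over 21974 probes) with a scanner file recorded under another sample, in 13 cases under another group. Each array was therefore given the sample of its matching table column, and this order equalled the running number of the scanner files for 16 of 16 arrays. With the arrays as recorded, no gene of the whole array was called in any of the 5 comparisons, and 33 of the 50 member differences had the opposite sign. Levels of cell type markers moved with the groups. The mean log2 level of 9 oligodendrocyte and myelin markers was 4.49 to 5.56 on untreated arrays, -0.14 to 3.22 at 2 weeks of CPZ, 0.59 to 3.53 at 4 weeks and 1.60 to 5.66 on regular diet, and 2 of them, Mog and Opalin, were not above background on every array. The mean log2 level of 11 microglial markers, all above background on all 16 arrays, was 0.98 to 1.97 in untreated mice, 1.25 to 2.44 at 2 weeks, 2.05 to 3.15 at 4 weeks and 2.22 to 5.39 on regular diet, where replicates 1 and 2 reached 5.08 and 5.39 and the other 4 did not exceed 2.50. The mean log2 level of 8 astrocyte markers was 2.80 to 3.71 in untreated mice, 3.20 to 4.05 at 2 weeks, 3.46 to 4.28 at 4 weeks and 3.75 to 3.95 on regular diet, and 4 of the 8 were higher than in untreated mice at an unadjusted p under 0.05 by limma in each of the 3 comparisons, with none called. At 2 weeks the other 4 were all below 0, with S100b lower at that level (-1.01), and the list medians were 0.14, 0.41 and 0.63. The mean of 8 neuronal markers was 2.72 to 3.42, 1.98 to 3.69, 2.80 to 3.69 and 2.03 to 3.19 in the same order. The mice on regular diet differed widely, with oligodendrocyte means of 1.60, 1.67 and 2.41 in replicates 1 to 3 and of 5.04, 5.12 and 5.66 in replicates 4 to 6.

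Of the 10 genes, Hmox1 differed most from untreated mice, 4.95-fold higher at 2 weeks of CPZ, 4.47-fold at 4 weeks and 4.60-fold on regular diet, the last a mean over mice that lay far apart. It was higher on 13 of 13 arrays of CPZ-fed mice than on any untreated array. The other 9 genes differed from untreated mice by -0.59 to 0.95 on the log2 scale, with Nfe2l2 the highest, and each of their intervals held 0. No member was called in any comparison by limma, where a call needs a Benjamini-Hochberg adjusted p under 0.05 over all probes and at least a 2-fold change. Limma also called none of the 9 oligodendrocyte and myelin markers in any comparison. Their median log2 difference from untreated mice was -3.21 at 2 weeks and -2.66 at 4 weeks, with 9 and 8 of them lower without overlap. A member that was not called is thus not shown to be unchanged. At an unadjusted p under 0.05 by limma for the brightest probe, Hmox1 alone passed at 2 weeks, at 4 weeks and on regular diet against untreated mice, and no member passed between 4 and 2 weeks or between regular diet and 4 weeks. The overall test with post-hoc comparisons of the methods also called 0 of 10 members in each comparison, where it called 0, 0, 0, 9 and 3 genes of the whole array. In the comparisons with regular diet mice this test took these mice as 1 group, where the methods kept their times apart. Of all genes tested, limma called 0.211% at 2 weeks (43 of 20402), 0.167% at 4 weeks, 0.0147% between 4 and 2 weeks, 0.854% on regular diet against untreated mice and 0.00485% on regular diet against 4 weeks of CPZ. These counts over all genes depended on single arrays. With 1 array left out they ranged from 7 to 63 at 2 weeks, 0 to 139 at 4 weeks (in place of 34), 0 to 44 between 4 and 2 weeks (in place of 3), 4 to 195 on regular diet against untreated mice (in place of 176) and 0 to 1435 against 4 weeks (in place of 1). The lowest count came without untreated replicate 3 or 4-week replicate 4 at 2 weeks, without 2-week replicate 3 or 4-week replicate 1, 3 or 4 at 4 weeks, and without untreated replicate 3 on regular diet against untreated mice. The highest came without 4-week replicate 1 at 2 weeks and on regular diet against 4 weeks, without 4-week replicate 2 at 4 weeks, without untreated replicate 1 between 4 and 2 weeks, and without 2-week replicate 2 on regular diet against untreated mice. Shares of all genes with an unadjusted p under 0.05 were 4.5% higher and 5.03% lower at 2 weeks, 5.2% and 4.83% at 4 weeks, 4.92% and 6.38% between 4 and 2 weeks, 6.28% and 4.29% on regular diet against untreated mice, and 15.5% and 11.1% against 4 weeks. Beside these shares, 1 of 10 members passed in each comparison with untreated mice and 0 of 10 in the other comparisons. All p values set a difference of group means against the spread between these mice. In the comparisons with regular diet that spread may also hold the difference between 2 days and 2 weeks of regular diet.

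**Figure D1:**
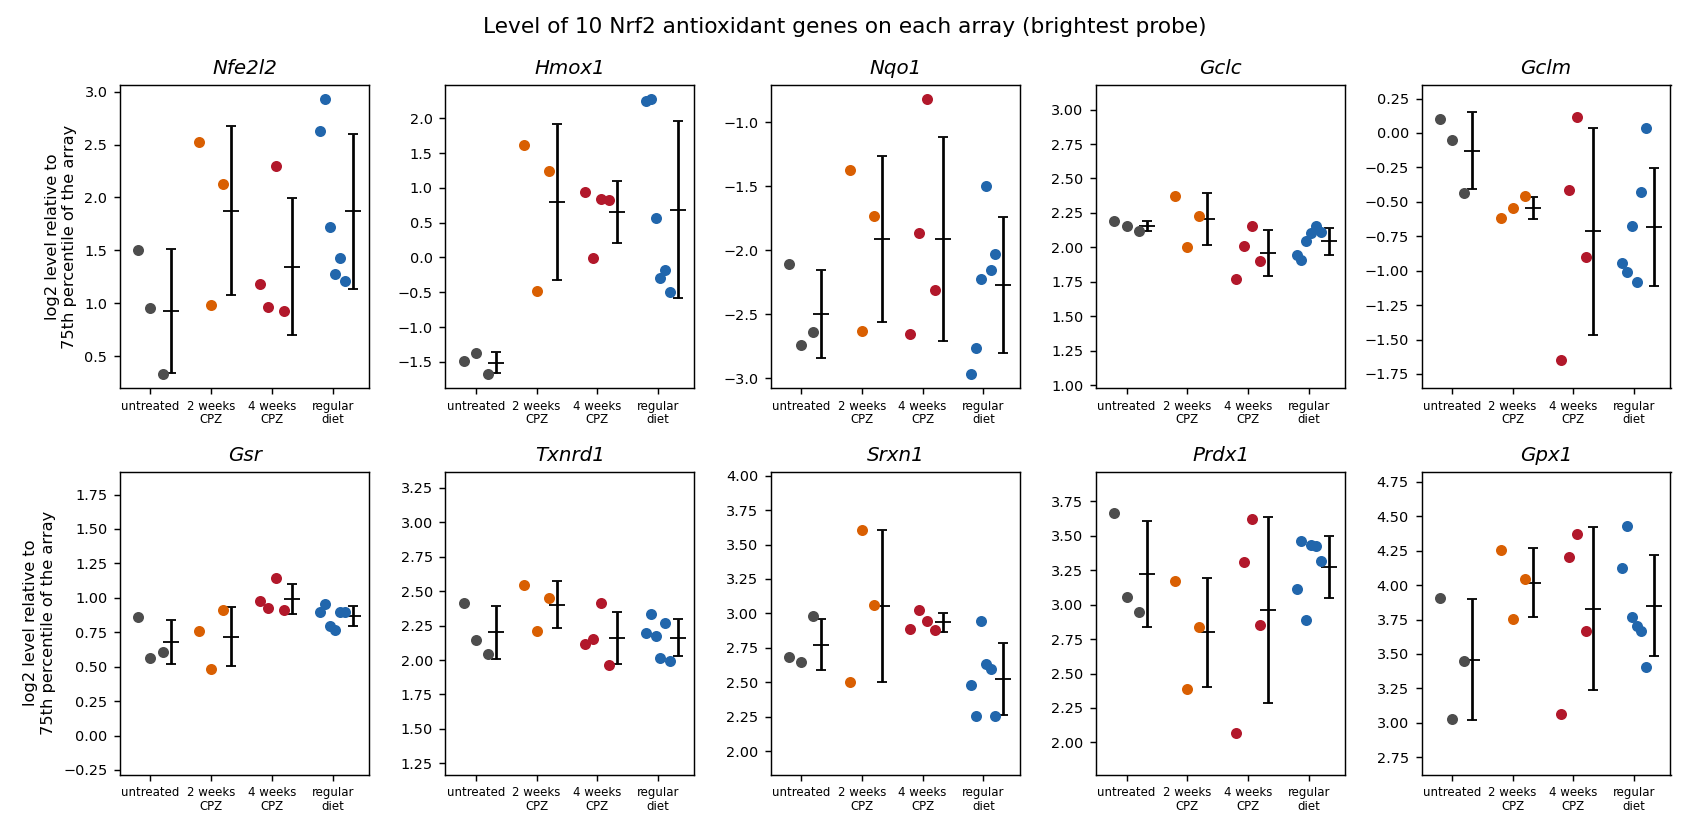
Log2 level relative to the 75th percentile of the array (y axis, own range per panel) for the brightest probe of each of the 10 genes. Each point is the array of 1 mouse, in the order of the replicate numbers, and the bars give mean and SD (3 untreated, 3 at 2 weeks of CPZ, 4 at 4 weeks, 6 on regular diet after CPZ). For Hmox1 all 13 arrays of CPZ-fed mice lie above -0.50 and the 3 untreated arrays at -1.37 or below, while the groups overlap in most other panels.

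Hmox1 encodes haem oxygenase 1, the inducible enzyme that splits haem into biliverdin, iron and carbon monoxide. Its log2 level was -1.49, -1.37 and -1.68 in the 3 untreated mice. At 2 weeks of CPZ it was 1.62, -0.48 and 1.24, and at 4 weeks it was 0.94, -0.01, 0.84 and 0.83. On regular diet it ranged from -0.49 to 2.28 with a median of 0.19. All 3 groups of CPZ-fed mice thus lay above the untreated mice without overlap, with 1 low array at 2 weeks (replicate 2) and 1 at 4 weeks (replicate 2), and with replicates 1 and 2 well above the others on regular diet. The log2 difference from untreated mice was 2.31 at 2 weeks (4.95-fold, SE 0.50, 95% interval 1.18 to 3.43, limma adjusted p = 0.101). At 4 weeks the log2 difference was 2.16 (4.47-fold, SE 0.47, interval 1.11 to 3.21, limma adjusted p = 0.105). On regular diet it was 2.20 (4.60-fold, SE 0.63, interval 0.84 to 3.56, limma adjusted p = 0.168), so that none of the 3 passed the threshold although each interval lay above 0. Groups without overlap and with the higher level in CPZ-fed mice were found for 8.16% of all genes at 2 weeks, 5.31% at 4 weeks and 5.06% on regular diet, and with the lower level in CPZ-fed mice for 4.44% at 4 weeks and 3.48% on regular diet.

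Whether Hmox1 passed the threshold depended on the fit. It passed at 2 weeks of CPZ without replicate 2 of that group (log2 2.94, limma adjusted p = 0.0378) and at 4 weeks when the same 2-week array was left out of the shared fit (log2 2.16, adjusted p = 0.0394). At 4 weeks it also passed with slide as a fixed block (log2 2.76, adjusted p = 0.0295) or in a fit of only the 2 groups compared, and with slide as a random block it passed at 2 and 4 weeks. Array weights, which give arrays that deviate less a higher weight, brought it past the threshold in all 3 comparisons with untreated mice, in a fit that called 1179, 1390 and 539 genes of the whole array in place of 43, 34 and 176. Within single slides Hmox1 was higher by 2.92 at 2 weeks (slide 1), by 2.21 and 2.62 at 4 weeks (slides 2 and 3), and by 1.20, 2.27 and 2.71 on regular diet (slides 1, 2 and 3). With the arrays as recorded the log2 difference was -0.44 at 2 weeks, -0.70 at 4 weeks and 0.22 on regular diet, so its direction against untreated mice at 2 and 4 weeks rests on the assignment of the arrays. Between 4 and 2 weeks of CPZ the difference in Hmox1 was -0.15 (interval -1.20 to 0.90), and between regular diet and 4 weeks it was 0.04 (interval -1.20 to 1.28), intervals wide enough to hold a 2-fold change.

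Nfe2l2, the gene of Nrf2, had log2 levels of 1.50, 0.95 and 0.33 in untreated mice. At 2 weeks of CPZ they were 2.52, 0.98 and 2.12, at 4 weeks 1.19, 0.96, 2.30 and 0.93, and on regular diet 1.21 to 2.93 with a median of 1.58. The groups overlapped, with the highest 3 arrays being replicates 1 and 2 on regular diet and replicate 1 at 2 weeks. The log2 difference from untreated mice was 0.95 at 2 weeks (1.93-fold, SE 0.50, interval -0.19 to 2.08, limma adjusted p = 0.692), 0.42 at 4 weeks (SE 0.47, limma adjusted p = 0.856) and 0.94 on regular diet (SE 0.46, limma adjusted p = 0.491). With 1 array left out the difference was 0.62 to 1.39 at 2 weeks (without replicates 1 and 2 of that group) and 0.10 to 0.70 at 4 weeks (without 4-week replicate 3 and untreated replicate 1). A second Nfe2l2 probe gave 1.00, 0.49 and 1.07, the last with an unadjusted p of 0.0323 (limma adjusted p = 0.42), again without a call. With array weights Nfe2l2 was called at 2 weeks (log2 1.44, limma adjusted p = 0.0105) and between 4 and 2 weeks (log2 -1.09, limma adjusted p = 0.00897), where that fit called 1179 and 1458 genes of the whole array in place of 43 and 3. Between 4 and 2 weeks the log2 difference was -0.53 (interval -1.59 to 0.53), which changed its sign with slide as a fixed block.

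The levels of Hmox1 and Nfe2l2 followed each other from array to array, with r = 0.81 over the 16 arrays and r = 0.84 after the group means were subtracted, a description of arrays that share scaling and tissue. The 2 arrays with the highest Hmox1 and the highest Nfe2l2 were those with the highest microglial markers, but the order of the other arrays was not that of the markers. On regular diet, replicates 1 and 2, with the microglial mean at 5.08 and 5.39, had Hmox1 at 2.25 and 2.28 and Nfe2l2 at 2.63 and 2.93, whereas the other 4 mice had Hmox1 at 0.57, -0.29, -0.18 and -0.49, the last 3 being those with the high oligodendrocyte means. At 2 weeks, replicates 1 and 3 had Hmox1 at 1.62 and 1.24 with microglial means of 2.44 and 2.24, while 4-week replicates 1, 3 and 4 had 0.94, 0.84 and 0.83 with the higher means of 2.81, 3.15 and 2.61. The 2-week array with the lowest Hmox1, replicate 2, had the lowest microglial mean of its group, 1.25, and the lowest oligodendrocyte mean of all 16 arrays, -0.14. The 4-week array with the lowest Hmox1, replicate 2, also had the lowest microglial mean of its group, 2.05. Of the 11 microglial genes, 8 were above 0 against untreated mice at 2 weeks (median log2 difference 0.76), 11 at 4 weeks (1.48) and 11 on regular diet (2.05), and limma called none of them. The part of these markers in the result was not tested, and in tissue RNA more cells of a type and more RNA per cell cannot be told apart. Without regular diet replicates 1 and 2, a choice made after the data were seen, the difference of that group from untreated mice was 1.41 for Hmox1 and 0.48 for Nfe2l2, and for Hmox1 the difference from 4 weeks of CPZ was -0.75 (limma adjusted p = 0.299).

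**Figure D2:**
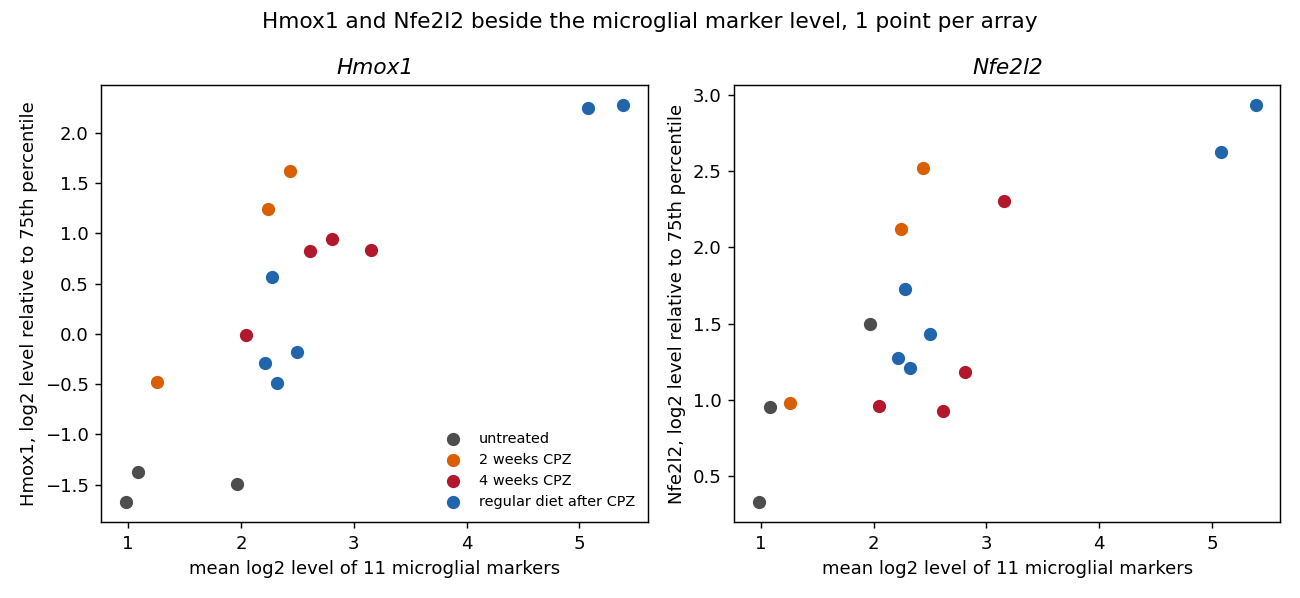
Log2 level of Hmox1 (left) and Nfe2l2 (right) on each of the 16 arrays against the mean log2 level of 11 microglial markers on the same array, with groups in colour. The 2 arrays at the far right are regular diet replicates 1 and 2 (5.08 and 5.39), and the 3 untreated arrays lie lowest for Hmox1.

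Nqo1 encodes a quinone reductase and is one of the best known Nrf2 targets. Its log2 level was -2.11, -2.74 and -2.64 in untreated mice, -1.37, -2.63 and -1.73 at 2 weeks, -2.65, -1.87, -0.82 and -2.31 at 4 weeks, and -2.97 to -1.50 on regular diet. The levels of all groups overlapped. The difference from untreated mice was 0.58 at 2 weeks (SE 0.49, limma adjusted p = 0.893), 0.59 at 4 weeks (SE 0.45) and 0.22 on regular diet (SE 0.40), and the interval at 2 weeks, -0.51 to 1.68, holds a 2-fold increase. With 1 array left out the difference was 0.31 to 0.94 at 2 weeks (without replicates 1 and 2 of that group) and 0.22 to 0.83 at 4 weeks (without replicates 3 and 1 of that group). Choroid plexus markers moved with Nqo1 on several arrays: their mean was 2.33 on the array with the highest Nqo1 (4-week replicate 3) and -2.88 on that with the lowest (regular diet replicate 1), and all 7 were above 0 at 4 weeks against untreated mice (median 0.86, none called). Their part in the result was not tested.

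Gclc and Gclm encode the catalytic and the modifier subunit of glutamate-cysteine ligase, the first and limiting step of glutathione synthesis. Gclc was 2.19, 2.15 and 2.12 in untreated mice, 2.38, 2.00 and 2.23 at 2 weeks, 1.77, 2.01, 2.16 and 1.90 at 4 weeks, and 1.91 to 2.16 on regular diet. It hardly differed between groups, by 0.05 at 2 weeks (interval -0.35 to 0.45), -0.20 at 4 weeks (-0.57 to 0.18) and -0.11 on regular diet (-0.39 to 0.16), intervals that leave out a 2-fold change either way. Gclm was 0.10, -0.05 and -0.43 in untreated mice and -0.62, -0.55 and -0.46 at 2 weeks, all 3 below the untreated mice, which was so for 8.64% of all genes. At 4 weeks Gclm was -1.65, -0.41, 0.11 and -0.90, and on regular diet -1.08 to 0.04, both overlapping with untreated mice. The difference from untreated mice was -0.41 (SE 0.39), -0.59 (SE 0.37) and -0.56 (SE 0.33), with limma adjusted p values of 0.893, 0.703 and 0.544. With 1 array left out the Gclm difference at 4 weeks was -0.86 to -0.27 (without replicates 3 and 1 of that group).

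Gsr encodes glutathione reductase, which returns oxidised glutathione to its reduced form. It was 0.86, 0.56 and 0.61 in untreated mice and 0.76, 0.48 and 0.91 at 2 weeks. At 4 weeks all 4 mice, at 0.98, 0.93, 1.15 and 0.91, lay above the untreated and the 2-week mice, and on regular diet the level was 0.76 to 0.95. The difference at 4 weeks was small, 0.31 from untreated mice (interval -0.07 to 0.70, limma adjusted p = 0.623) and 0.27 from 2 weeks (interval -0.11 to 0.66, limma adjusted p = 0.522). The other Gsr probes gave 0.28 and 0.16 at 4 weeks against untreated mice, with overlap. Gsr and Hmox1 were the 2 of 10 members without overlap at 4 weeks against untreated mice, and Gsr the 1 of 10 between 4 and 2 weeks, where 5.82% of all genes were higher and 9.41% lower without overlap.

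Txnrd1 encodes the cytosolic thioredoxin reductase. It was 2.41, 2.15 and 2.04 in untreated mice, 2.54, 2.21 and 2.45 at 2 weeks, 2.12, 2.15, 2.42 and 1.97 at 4 weeks and 1.99 to 2.33 on regular diet. These levels overlapped throughout, and the differences from untreated mice of 0.20 (interval -0.23 to 0.64), -0.04 (-0.45 to 0.37) and -0.04 (-0.35 to 0.27) leave out a 2-fold change.

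Srxn1 encodes sulfiredoxin, which repairs overoxidised peroxiredoxins, and its brightest probe was 2.68, 2.65 and 2.98 in untreated mice, 2.50, 3.60 and 3.06 at 2 weeks, 2.89, 3.02, 2.94 and 2.88 at 4 weeks, and 2.25 to 2.94 on regular diet. Against untreated mice the differences were 0.28 (interval -0.31 to 0.88), 0.16 (-0.40 to 0.72) and -0.25 (-0.70 to 0.21). With 1 array left out they were 0.008 to 0.559 at 2 weeks, 0.10 to 0.27 at 4 weeks and -0.33 to -0.14 on regular diet. Srxn1 had the largest drop of the members in mean level from 4 weeks of CPZ to regular diet, -0.41 (SE 0.19, interval -0.82 to 0.01, limma adjusted p = 0.207). A second, dimmer Srxn1 probe gave -0.51 (SE 0.14, limma adjusted p = 0.0935) with all 6 mice on regular diet (-1.38 to -0.95) below all 4 at 4 weeks (-0.88 to -0.49), and the third probe gave -0.17 with overlap. Of all genes 3.48% were lower and 4.97% higher without overlap in this comparison. All 8 neuronal markers were lower in it as well (median -0.56, 3 at an unadjusted p under 0.05 by limma, none called), and the highest Srxn1 level, 3.60 in 2-week replicate 2, came with a neuronal mean of 3.69, while 4-week replicate 2, with a mean as high, had Srxn1 at 3.02. The part of these markers in the result was not tested. The 3 Srxn1 probes had the same sign here but differed in sign at 4 weeks against untreated mice (0.16, 0.37 and -0.07), where the second probe was higher without overlap.

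Prdx1, a peroxiredoxin that reduces hydrogen peroxide with electrons from thioredoxin, was 3.66, 3.06 and 2.95 in untreated mice. It was 3.17, 2.39 and 2.84 at 2 weeks, 2.07, 3.31, 3.62 and 2.85 at 4 weeks and 2.89 to 3.46 on regular diet. No array of a CPZ-fed mouse exceeded the highest untreated array, and the differences were -0.42 (SE 0.40), -0.26 (SE 0.38) and 0.05 (SE 0.29). Gpx1, a glutathione peroxidase, was 3.90, 3.02 and 3.45 in untreated mice. It was 4.25, 3.76 and 4.04 at 2 weeks, 3.07, 4.21, 4.37 and 3.67 at 4 weeks and 3.40 to 4.43 on regular diet, and no array of a CPZ-fed mouse lay below the lowest untreated array. The differences of Gpx1 were 0.56 (SE 0.36), 0.37 (SE 0.34) and 0.39 (SE 0.30). At 4 weeks the difference was 0.04 for Prdx1 and 0.62 for Gpx1 without replicate 1 of that group, and 0.15 for Gpx1 without untreated replicate 2. With 1 array left out the Gpx1 difference was 0.34 to 0.78 at 2 weeks and 0.175 to 0.614 on regular diet. The Prdx1 difference was then -0.61 to -0.20 at 2 weeks and -0.09 to 0.27 on regular diet. For both genes the limma adjusted p was 0.604 or above in the 3 comparisons with untreated mice.

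**Figure D3:**
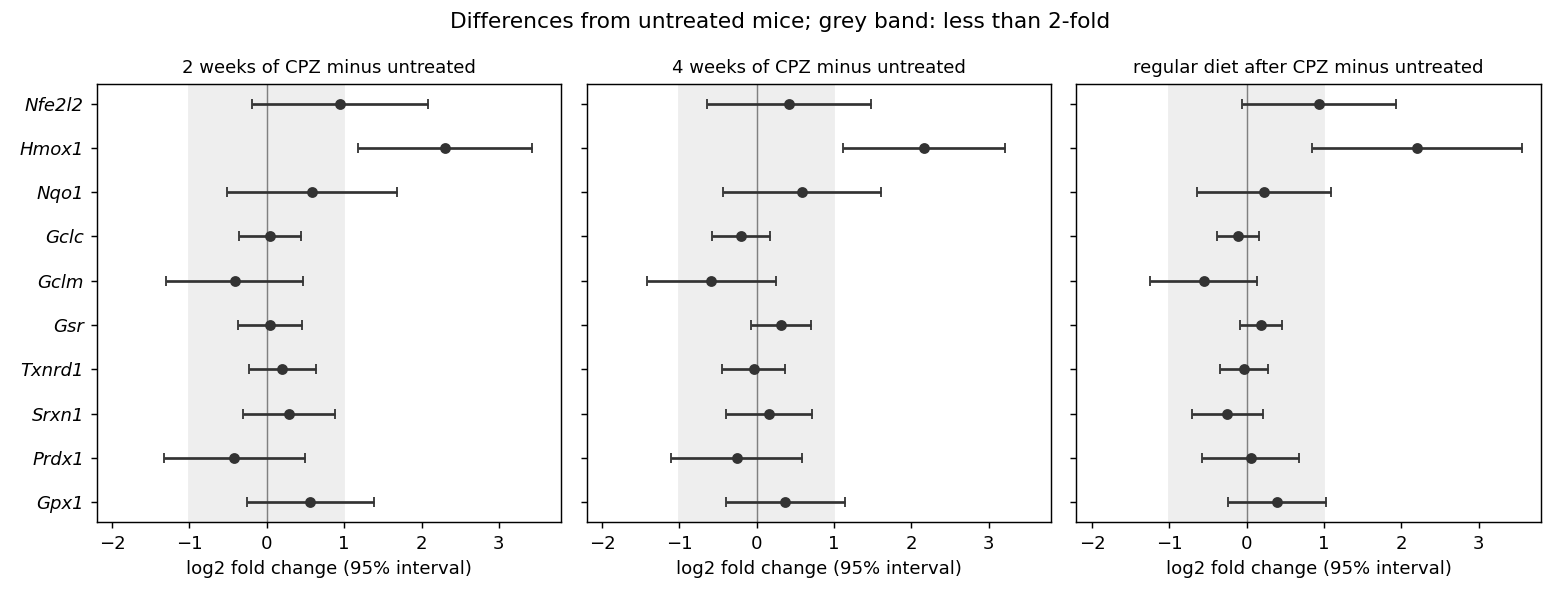
Log2 difference from untreated mice for the brightest probe of each gene at 2 weeks of CPZ, at 4 weeks of CPZ and on regular diet after CPZ. Points are limma estimates, bars are 95% intervals and the grey band marks less than a 2-fold change. Hmox1, at 2.31, 2.16 and 2.20, is the only gene whose interval lies above 0, and Txnrd1, Gsr, Gclc and Srxn1 have intervals inside the band in all 3 panels.

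Taken over the 10 genes, 8 were above 0 at 2 weeks against untreated mice with a median log2 difference of 0.24, beside 55.1% of all genes and a median of 0.05. At 4 weeks 6 were above 0 with a median of 0.24 (all genes 45.4% and -0.04), and on regular diet 6 with a median of 0.12 (49.2% and -0.01). Between 4 and 2 weeks 3 of 10 were above 0 (median -0.16, all genes 48.1%), and between regular diet and 4 weeks 7 of 10 (median 0.03, all genes 52.8%). Intervals inside a 2-fold change either way were found for 4, 4 and 5 of the 10 genes against untreated mice at 2 weeks, 4 weeks and on regular diet. The 3 comparisons with untreated mice share the same 3 control arrays.

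Among 11 regulators and partners of Nrf2, none was called by limma against untreated mice, and 2 at 2 weeks, 1 at 4 weeks and 3 on regular diet had an unadjusted p under 0.05. For this list and those below, the shares of all genes at that level were 4.5% higher and 5.03% lower at 2 weeks, 5.2% and 4.83% at 4 weeks, and 6.28% and 4.29% on regular diet. Without overlap they were 8.16% and 8.64%, 5.31% and 4.44%, and 5.06% and 3.48%. Maff, a small Maf protein that pairs with Nrf2, had the highest values, 2.60 at 2 weeks (SE 0.74, adjusted p = 0.203), 1.51 at 4 weeks and 1.51 on regular diet. Its level was -2.87, -2.02 and -3.59 in untreated mice and 0.73, -1.57 and 0.16 at 2 weeks, where the low array was again replicate 2. On regular diet Maff was at -0.29 and 0.16 in replicates 1 and 2, the arrays with the highest microglial markers. In replicates 3 to 6 it was at -2.66 to -1.19. The part of these markers was not tested. Keap1, which binds Nrf2 for degradation, had the lowest value at 2 weeks, -0.53 (SE 0.23, adjusted p = 0.504), with all 3 mice below the untreated mice, and Mafk and Cul3 gave 0.39 and -0.25. At 4 weeks Nfe2l1, a relative of Nfe2l2, was at 0.56 (SE 0.19) and Bach2 and Mafg were at -0.31 and -0.29. On regular diet against untreated mice Cul3 and Keap1 were both at -0.42 and Mafg at 0.18.

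Of 21 genes of glutathione transport, synthesis and transfer, 20 were tested at 2 and 4 weeks and 21 on regular diet, and limma called 0 against untreated mice, with 5, 4 and 4 at an unadjusted p under 0.05. Slc7a11, the cystine carrier that feeds glutathione synthesis, had the highest value at 2 weeks, 2.12 (SE 0.52, adjusted p = 0.142). Its level was -0.54, -0.78 and -1.31 in untreated mice and 1.81, 0.68 and 1.23 at 2 weeks, without overlap. At 4 weeks it was at 0.90 with overlap. Chac1, which degrades glutathione, was at 1.40 at 2 weeks (adjusted p = 0.143) and at 1.64 at 4 weeks (SE 0.33, adjusted p = 0.0882), both without overlap, and at 0.56 on regular diet. That mean joins levels of 1.07, 1.38 and 1.32 in replicates 1 to 3, with low oligodendrocyte means, and of -0.12, -0.13 and -0.23 in replicates 4 to 6, beside -0.53 to 0.29 in untreated mice. Both genes are also known targets of the amino acid stress factor Atf4. Gss, glutathione synthetase, and Gstp1, a glutathione transferase with near-identical relatives, were the lowest, at -1.10 and -1.17 at 2 weeks and -1.18 and -0.95 at 4 weeks, all without overlap and none called. Oligodendrocyte markers moved with both: on regular diet Gss was at -1.25, -0.87 and -0.78 and Gstp1 at 4.59, 4.79 and 5.20 in replicates 1 to 3, whose oligodendrocyte means were low, and at 0.17, 0.21 and 0.64 and at 6.08, 5.96 and 6.28 in replicates 4 to 6. The part of these markers was not tested. On regular diet Mgst2 and Mgst1, microsomal transferases, were at 0.98 and 0.80, and Gstp1 and Gstm5 at -0.90 and -0.89. At 2 and 4 weeks of CPZ, Slc7a11 and Chac1 thus had the highest values of the glutathione genes and Gss and Gstp1 the lowest, with Gclc, Gclm and Gsr in between.

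Among 13 measured haem, iron and detoxification targets, limma called none, with 4, 1 and 2 at an unadjusted p under 0.05 at 2 weeks, 4 weeks and on regular diet against untreated mice. Akr1b8, an aldo-keto reductase, was at 0.90, 1.00 and 0.96, without overlap at 2 and 4 weeks, and Ephx1, the microsomal epoxide hydrolase, at 1.59, 0.70 and 0.90 with overlap. Fth1, the ferritin heavy chain that stores the iron that haem oxygenase releases, was at -0.80, -0.57 and -0.60, and the light chain Ftl1 at -0.04, 0.08 and 0.82, all with overlap. On regular diet Fth1 was at 8.49, 8.53 and 8.32 in replicates 1 to 3 and at 8.80 to 9.32 in replicates 4 to 6, those with the higher oligodendrocyte means, and its lowest level, 8.14, was that of 2-week replicate 2 with the lowest such mean. On regular diet Ftl1 was at 3.81 and 4.30 in replicates 1 and 2, the arrays with the highest microglial markers, and at 2.57 to 2.77 in the other 4, beside 2.06 to 2.70 in untreated mice. Hmox2, the constitutive haem oxygenase, was at -0.42 at 2 weeks and -0.09 on regular diet, and Aox1 at -0.14 at 4 weeks.

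The 19 other thioredoxin, peroxiredoxin and peroxide enzymes were above 0 in 16 cases at 2 weeks (median 0.13), 16 at 4 weeks (median 0.23) and 10 on regular diet (median 0.01), beside 55.1%, 45.4% and 49.2% of all genes, with 1 at an unadjusted p under 0.05 in each comparison and none called by limma. The extremes were Gpx8 (0.65), Sesn2 (0.63), Txnrd2 (-0.50) and Cat (-0.48) at 2 weeks, and Prdx6 (0.65), Gpx3 (0.65), Txnrd2 (-0.48) and Txnip (-0.21) at 4 weeks. On regular diet Gpx3, the secreted glutathione peroxidase, was at 1.28 (SE 0.47, limma adjusted p = 0.339) with all 6 mice above the untreated mice (-3.36 to -2.96), at -1.29, -0.75 and -1.51 in replicates 1 to 3 and at -2.45, -2.95 and -2.42 in replicates 4 to 6, Gpx8 at 0.48, Txnrd2 at -0.27 and Sod2 at -0.26. Of 6 genes that supply NADPH for these reductases, 0 were called by limma, and 3, 1 and 1 had an unadjusted p under 0.05. Taldo1 and Tkt, enzymes of the pentose phosphate pathway, were at -1.22 and -0.98 at 2 weeks, below all untreated mice, and at -0.83 and -0.37 at 4 weeks and -0.50 and -0.35 on regular diet. Oligodendrocyte markers moved with Taldo1 too, which on regular diet was at 5.19, 5.42 and 4.96 in replicates 1 to 3 and at 6.09, 6.20 and 6.45 in replicates 4 to 6, and their part was not tested. Pgd and Me1, at 0.15 and 0.02 at 2 weeks and 0.28 and 0.28 at 4 weeks, and Pgd and Idh1, at 0.74 and 0.25 on regular diet, were the highest. Pgd on regular diet was at 2.44 and 2.76 in replicates 1 and 2 and at 1.04 to 1.25 in the other 4.

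**Figure D4:**
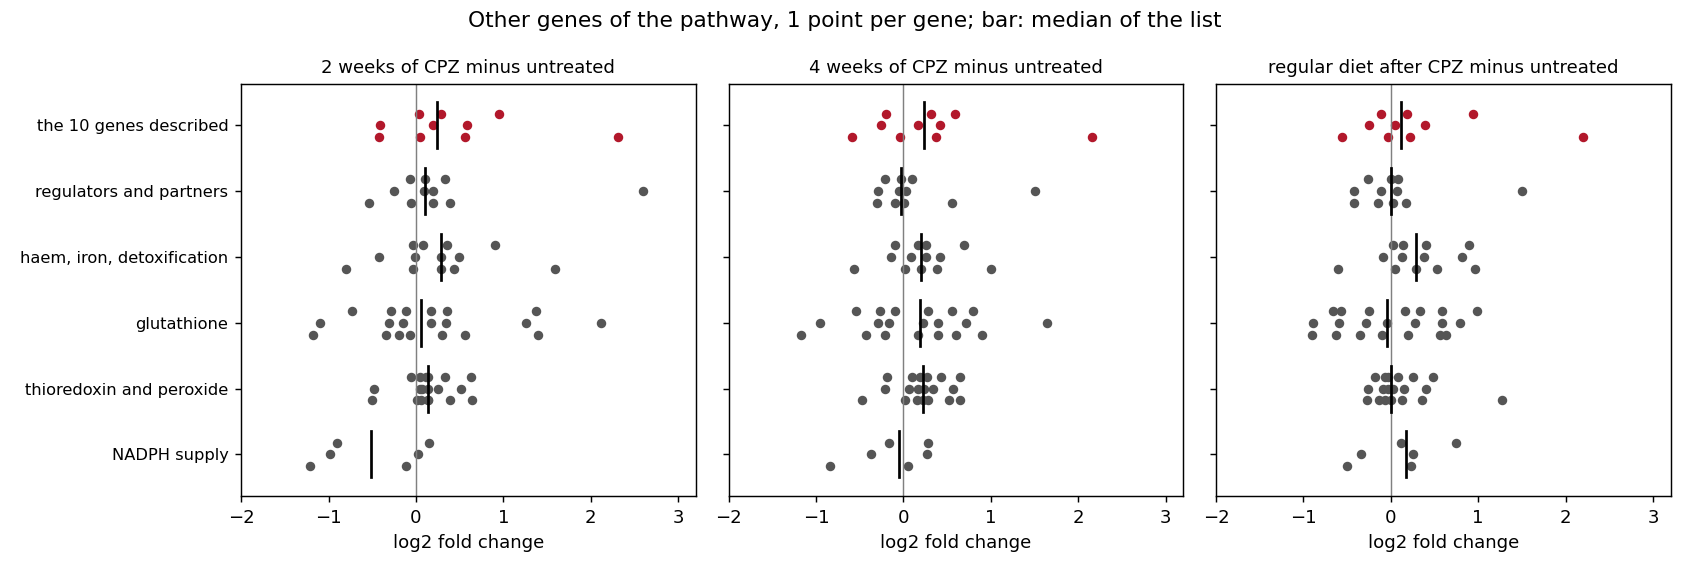
Log2 difference from untreated mice, 1 point per gene, for the 10 genes described (red) and 5 lists of other pathway genes (grey) at 2 weeks of CPZ, at 4 weeks and on regular diet, with the list median as a bar. Most genes lie within 1 of 0; the points beyond 2 are Hmox1 in all 3 panels and Maff and Slc7a11 at 2 weeks.

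Between 4 and 2 weeks of CPZ no gene of the 5 lists was called by limma, with 1 regulator higher and 2 lower, 1 glutathione gene lower and 1 NADPH gene higher at an unadjusted p under 0.05, beside 4.92% of all genes higher and 6.38% lower. Of the regulators Maff and Mafg were at -1.09 and -0.62 and Nfe2l1 and Keap1 at 0.45 and 0.43. Slc7a11 was at -1.21 (SE 0.49, adjusted p = 0.459) and Gsta3 at -0.72, with Gsta4 at 0.54 and Gstm2 at 0.26. Idh1, which makes NADPH from isocitrate, was at 0.96 (SE 0.31, adjusted p = 0.404) and Tkt at 0.61, with G6pdx at -0.05 and Pgd at 0.13. Ephx1 and Aox1 were at -0.89 and -0.57, Hmox2 and Cbr3 at 0.33 and 0.29, Txnip and Gpx8 at -0.60 and -0.12, and Sod1 and Prdx6 at 0.38 and 0.31. Between regular diet and 4 weeks of CPZ limma called none either, with 2 regulators higher and 2 lower, 1 glutathione gene higher and 2 lower and 2 thioredoxin and peroxide enzymes lower at that level, beside 15.5% of all genes higher and 11.1% lower. Nfe2l1 had the lowest value of the regulators, -0.71 (SE 0.16, adjusted p = 0.0827), with all 6 mice below the 4-week mice, and Cul3 was at -0.44, Mafg at 0.47 and Bach2 at 0.39. Of the glutathione genes Chac1 was at -1.08 and Gstm2 at -0.71, and Mgst2 at 1.02 and Gsta3 at 0.58. Mgst2, which was kept in the fit only through the regular diet mice, was the 1 glutathione gene higher at that level. Sod1, the copper and zinc superoxide dismutase, was at -0.52 (SE 0.16, adjusted p = 0.103) below all 4-week mice, and Txn2 at -0.36, with Gpx3 at 0.63 and Txnip at 0.34. Ftl1 and Aox1 were at 0.73 and 0.54, Pir and Esd at -0.16 and -0.13, and of the NADPH genes Pgd and Taldo1 at 0.46 and 0.34 and Me1 and Tkt at -0.04 and 0.02.

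Over the 16 arrays, the named genes whose levels were most like those of Hmox1 by Pearson correlation were Tubb6 (r = 0.98), Abca1 (0.96), Tspan4 (0.96), Trim30a (0.94) and Il13ra1 (0.94). For Nfe2l2 they included Zfp36l1 (0.97), Mcl1 (0.96), Myd88 (0.96) and Plekhf2 (0.95), and for Srxn1 they were Kcns3 (0.93), Jdp2 (0.93), Camk1g (0.92), Nptx2 (0.92) and Ttpal (0.92). No other member was among the 5 nearest genes of Hmox1, Nfe2l2 or Srxn1.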

How the data were processed

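RNA of the corpus callosum from 16 male mice was hybridised to 4x44K Agilent whole mouse arrays, 1 per mouse, on 4 slides of 4 arrays. The authors quantified spots with Agilent Feature Extraction (11.0.1.1 per the processing notes). The deposited scanner files hold processed signal intensities on a linear scale, and the deposited table of the series holds log2 values that the authors scaled to the 75th percentile and centred on the untreated median, which was 0 for 100.0% of its probes. Columns of the table were assigned to samples by name, and scanner files to columns by identity of their values. Intensities were scaled to the 75th percentile of each array and put on the log2 scale. Control and outlier spots were left out, spots of one probe averaged, and a probe was kept if some group had it well above background on all of its arrays (27503 in the fit of 10 untreated and CPZ arrays, 27783 in the fit of all 16). Symbols came from transcript accessions through RefSeq, and 20402 and 20606 genes, or accessions where no symbol was found, were counted by their brightest probe. limma 3.58.1 in R 4.3.3 fitted group means. The precision is limited by 3 to 6 arrays per group (7 and 12 residual degrees of freedom), with a median residual SD of 0.40 and 0.39. In data simulated for 4 weeks against untreated mice (27447 probes), limma called 8% of probes shifted by 1 on the log2 scale. It called 78% of those shifted by 2 or by 3 and 96% of those shifted by 4. In the measured data limma called 0 of the 9 oligodendrocyte and myelin markers at 4 weeks, where their median difference was -2.66. A gene that was not called may thus still have changed by more than 2-fold.

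A gene was called at an adjusted p under 0.05 and at least 2-fold. Every member is named. Of each other list, genes called are named and otherwise the 2 highest and the 2 lowest of a comparison, and for Hmox1, Nfe2l2 and Srxn1 the 5 genes with the highest correlation over 16 arrays, of which 1 is not reported here. The members, lists and tests were chosen with earlier results of these data known. The alternatives were quantile and median scaling, normexp background correction (offset 50, on median signals since the files give no mean signal), other probe filters, slide as a fixed or random block, the replicate number as a block, array weights, the methods' test, other sets of arrays, the deposited log2 table, the recorded assignment, and each array left out. Astrocyte, neuron, endothelial, choroid plexus and red blood cell markers were measured beside the lists named above. Their lowest and highest mean log2 levels over the groups were 2.80 and 4.28, 1.98 and 3.69, -1.20 and 0.02, -2.88 and 2.33, and 1.55 and 4.03.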

Additional observations from a re-analysis of the deposited data

Results flagged for a closer look

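Gaps within a group were examined for the 15 probes in the 2 groups with 4 or more mice, and 2 of these 30 sets held a value far from the rest, where chance alone gives about 1 in 20. The Hmox1 level of replicate 2 at 4 weeks of CPZ, -0.015 on the log2 scale, was the lowest of its group. The next value was 0.83, and the gap made up 0.88 of the range. Its microglial marker mean, 2.05, was also the lowest of that group. The level of a dim Srxn1 probe in replicate 3 on regular diet, -1.81, was the highest of its group, with the next at -2.33 and a gap of 0.79 of the range. The brightest Srxn1 probe was likewise highest in this mouse, at 2.94.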

How the results depend on the processing

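The count of called members was 0 in all 5 comparisons, and stayed at 0 under 22 of 25 alternatives at 2 weeks of CPZ, 20 of 25 at 4 weeks, 24 of 25 between 4 and 2 weeks, 30 of 31 on regular diet against untreated mice and 31 of 31 on regular diet against 4 weeks. At 2 weeks it was 1 (Hmox1, 2.36, limma adjusted p = 0.047) with slide as a random block and 2 with array weights (Hmox1 2.72, Nfe2l2 1.44). At 4 weeks it was 1, always Hmox1, with slide as a fixed block (2.76), slide as a random block (2.40), array weights (2.33) and only the 2 groups compared (2.16). With array weights it was also 1 between 4 and 2 weeks (Nfe2l2, -1.09) and 1 on regular diet against untreated mice (Hmox1, 1.59). Leaving out each array gave 0 to 1 called members at 2 and at 4 weeks and 0 to 0 in the other comparisons, and the array that brought Hmox1 past the threshold was replicate 2 at 2 weeks. The Hmox1 difference from untreated mice kept its sign under all 75 other settings, apart from the recorded assignment, and ranged from 1.47 to 2.72 at 2 weeks, 1.30 to 2.76 at 4 weeks and 1.34 to 2.93 on regular diet, and with 1 array left out from 1.89 to 2.94, 2.06 to 2.38 and 1.88 to 2.44. Over all 10 genes 84 of 1270 values changed sign, 1 of them from a main difference of 0.5 or more. The count of called genes over the whole array ranged more widely, from 0 to 1179 at 2 weeks, 0 to 1390 at 4 weeks, 0 to 1458 between 4 and 2 weeks, 0 to 539 on regular diet against untreated mice and 0 to 1860 against 4 weeks. The highest of these came with array weights. Over all genes the methods' test called 0, 0, 0, 9 and 3. The causes were not tested.

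Replicate numbers did not pair the mice: over 19 pairs of arrays with the same number in different groups, the deviations from the group means correlated between -0.81 and 0.34, with 5 above 0.1. With the replicate number as a block (pairing), 0 members were called in each of the 5 comparisons, and 0, 0, 0, 19 and 0 genes of the whole array in place of 43, 34, 3, 176 and 1. Every member was well above background on every array.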
